A study of Mus musculus with 2 samples.

Results

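The genes described here are 46 chromatin remodellers and histone-modifying or DNA-modifying enzymes, taken by gene symbol from the 32285 gene rows of a joint RNA and chromatin accessibility experiment on single nuclei. All 46 had a gene row in both count matrices. Their RNA was described in 3 classes of nuclei and in 2 libraries, and the accessible peaks at their promoters were set beside it. The nuclei came from effector T cells of the mouse gut, sorted for CD4+CD44+CD62L- cells and against CD8a, CD11c, CD45R and F4/80, with cells of colon and small intestine pooled. The control library came from mice of genotype Zfp362flox/flox, 26 to 33 weeks old, with no Cre in the label. The knockout library came from mice of the same age of genotype CD4creZfp362flox/flox. Both groups carry the floxed alleles, and only the knockout group carries the Cre transgene, which CD4 sequences drive in cells that express or have expressed Cd4. The series' text names 7 mice without saying how they were divided, animals cannot be told apart within a library, and there is 1 library per genotype. A difference between the libraries therefore has no replicate check, and genotype, library and depth cannot be told apart. Intervals given below are 95% intervals that cover counting error only, and no p-value is given. Where 2 values stand together with no library named, the control value comes first.

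Chromatin regulators act on the nucleosome and on the DNA wrapped around it. Methyltransferases and acetyltransferases write marks on histone tails, demethylases and deacetylases remove them, and reader proteins bind them. Remodellers of the SWI/SNF and CHD families use ATP to slide, evict or assemble nucleosomes, while DNMT and TET enzymes add and oxidise methyl groups on cytosine. In T cells and in innate lymphoid cells these enzymes help to keep lineage genes open or silent, and most of them are expressed broadly across tissues.

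Unique molecular identifiers (UMIs), each standing for 1 captured RNA molecule, numbered 10803590 in 4223 control barcodes and 9348999 in 2391 knockout barcodes. Nuclei with 500 to 4000 UMIs were kept, 3675 (control) and 1774 (knockout). The upper limit removed 501 control nuclei (12.0%) and 572 knockout nuclei (24.4%). No doublet caller was run here, so doublets below the limit were kept. The libraries shared 11 barcodes, of which 7 were kept. Zfp362, the targeted gene, had 74 control and 18 knockout UMIs, 9.96 and 4.78 CPM (counts per 1000000 UMIs) and a log2 ratio of knockout over control of -1.03 (-1.89 to -0.30). The deleted exons were not stated in the labels, so this does not check them. Nuclei with a Foxp3 UMI formed the Foxp3-positive class, with 299 control and 119 knockout nuclei. Foxp3 is the transcription factor that defines regulatory T cells. Nuclei with a UMI of Cd3d, Cd3e or Cd3g and none of Foxp3 formed the other Cd3-positive class, with 1788 and 786 nuclei. The rest, 1588 control (43.2%) and 869 knockout nuclei (49.0%), are called Cd3-negative. Median depths differed little between the classes, at 2105 and 2029 UMIs in the Foxp3-positive class, 1953.5 and 2133 in the other Cd3-positive class, and 1834 and 1934 in the Cd3-negative class.

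The sort label describes T cells, and the markers did not follow it in every nucleus. All 12 T-cell marker genes were lower in the Cd3-negative than in the other Cd3-positive class in both libraries, 3 of them being the genes that define the classes, and the list summed to 2689 and 2901 CPM against 7682 and 7584. In the same comparison 7 of the 9 testable innate lymphoid markers were higher and 1, Tox, was lower. That list of 10 summed to 9021 and 9299 CPM against 6363 and 6668. Kit, a growth factor receptor of type 3 innate lymphoid cells, stood at 585 and 591 CPM in Cd3-negative nuclei of the 2 libraries, against 77.8 and 79.5 in other Cd3-positive nuclei. Among Cd3-negative nuclei, 84.8% and 86.5% still had a UMI of another gene of the T-cell marker list, so the class is called by its rule alone. In the same class 13 of 16 testable immediate-early genes were higher in both libraries, with median log2 ratios of 0.87 and 0.88. Jchain and Zbtb46 were also higher there, with log2 ratios of 2.24 and 1.65 for Jchain and 2.39 and 2.30 for Zbtb46. Jchain was the only testable gene of the 8 on the B and plasma cell list. Zbtb46 was the only testable gene of the 9 on the myeloid list. Which cells carried them was not tested. The B and plasma cell list summed to 108 and 116 CPM in Cd3-negative nuclei, against 49.5 and 53.2 in other Cd3-positive nuclei. The myeloid list summed to 432 and 436 CPM against 87.3 and 90.1. Epithelial markers had 32 and 12 UMIs in all in Cd3-negative nuclei. The part of cells with any of these markers, or of the immediate-early state, in the results below was not tested.

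Members were measured at very different levels. Together they made up 1.03% of all UMIs (control) and 1.10% (knockout), with a median of 19 and 22 member UMIs per nucleus. Levels of different genes were compared in all kept nuclei, as CPM per kilobase of annotated exon. On that scale Kdm2b, a demethylase that also links Polycomb complexes to CpG islands, was first, at 168 (control) and 203 (knockout). Chd2, a CHD-family remodeller, followed at 149 and 164. Kdm6b, which removes the repressive H3K27 trimethyl mark, stood at 120 and 122. Next came, in the order of the control library, the corepressor scaffold Ncor1 (65.1 and 68.7), the remodeller Chd7 (64.6 and 71.5) and the PRC2 subunit Eed (57.2 and 49.4). The first 3 genes kept the same order in both libraries, while Ncor1 and Chd7 changed places between them. Eed was below both in each library.

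At the low end of the per-kilobase scale was Tet1, a cytosine-oxidising enzyme best known from stem cells, with 4 control and 10 knockout UMIs. Its relatives Tet2 and Tet3 had 1207 and 525 control UMIs. Kmt2b (2.55 and 2.94 CPM per kilobase), Kmt2d (3.11 and 3.13), Dnmt1 (4.42 and 4.13) and Hdac3 (4.57 and 5.09) were also low. Kmt2b and Kmt2d encode large H3K4 methyltransferases, Dnmt1 maintains DNA methylation, and Hdac3 is the catalytic partner of Ncor1. Nuclear RNA holds many intron reads, and whether the counts include introns is not given in the sources used here, so exon length is only a rough divisor. No nucleus held more than 6.82% of a testable member's UMIs in the control library or 17.1% in the knockout library.

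**Figure D1:**
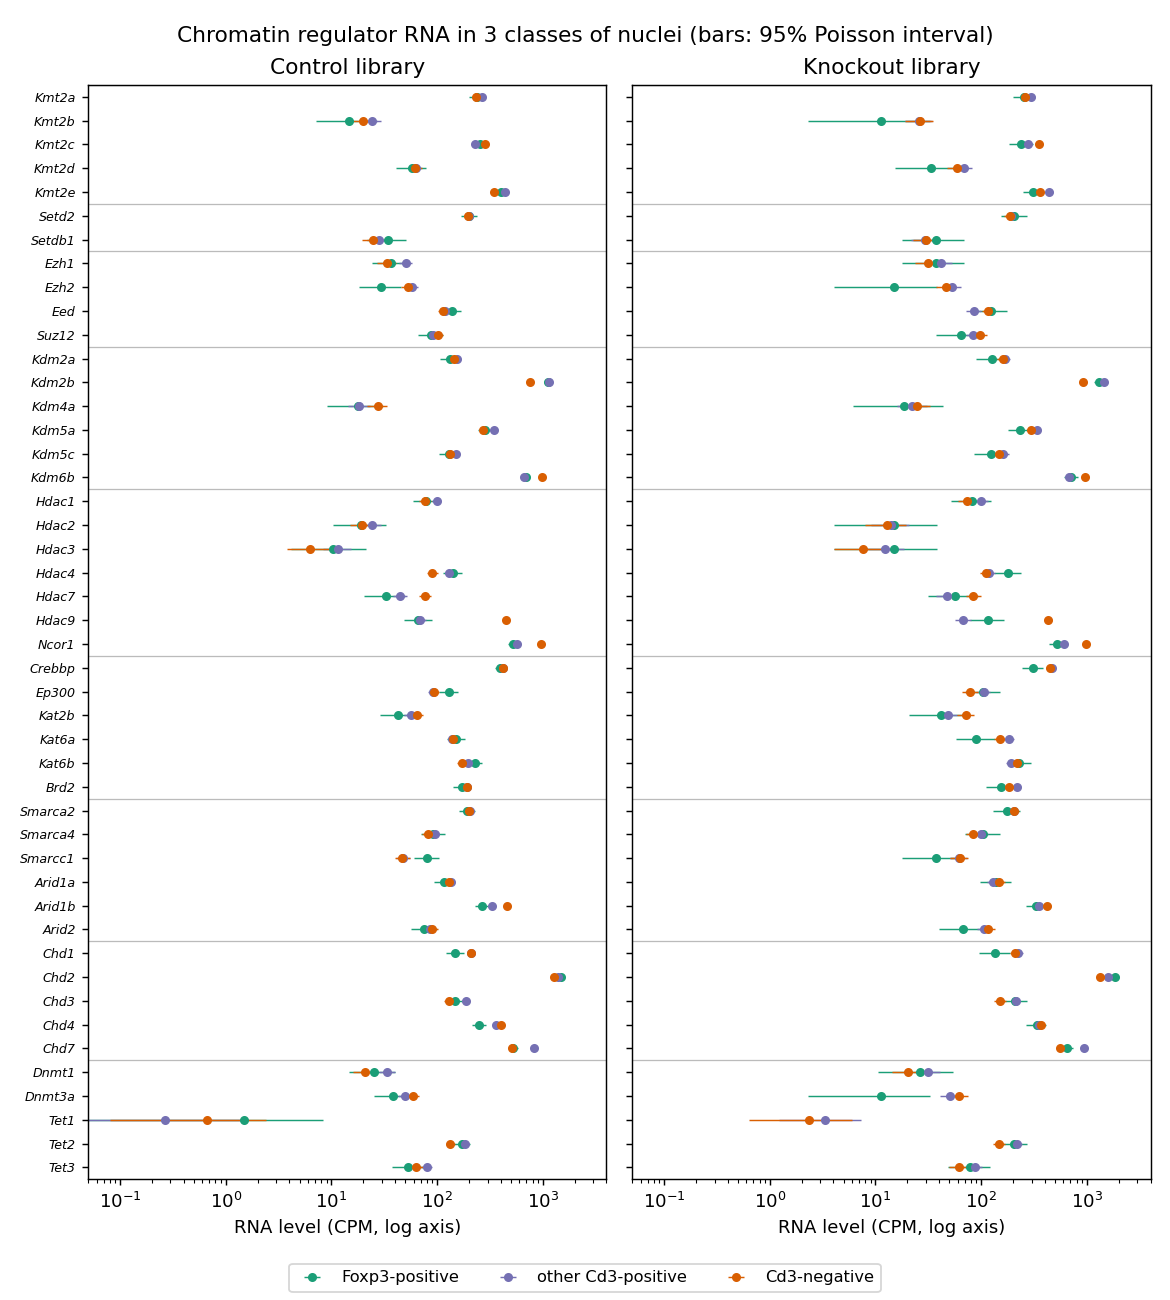
RNA level of each of the 46 genes (CPM, log axis) in Foxp3-positive, other Cd3-positive and Cd3-negative nuclei, with the control library on the left and the knockout library on the right. Points are CPM of summed UMIs with 95% Poisson intervals, grouped by role, and the orange Cd3-negative points stand clear of the others for Hdac9, Ncor1 and Kdm6b.

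Between the Cd3-negative and the other Cd3-positive class, the largest difference among members was in Hdac9. Hdac9 encodes a class IIa histone deacetylase, a family that binds MEF2 factors and recruits Ncor corepressor complexes to them. Its level was 69.0 CPM in other Cd3-positive control nuclei and 67.7 in knockout nuclei, and 451 and 433 CPM in Cd3-negative nuclei. The log2 ratio was 2.71 (2.52 to 2.91, control) and 2.67 (2.40 to 2.96, knockout), or 6.53-fold and 6.36-fold. The values of the 2 libraries lay close together in each of these classes, and the classes were far apart in both. Hdac9 UMIs were seen in 550 Cd3-negative and 114 other Cd3-positive control nuclei, and in 317 and 63 knockout nuclei, so many nuclei contributed. The classes held 1588 Cd3-negative and 1788 other Cd3-positive control nuclei, and 869 and 786 knockout nuclei, so the share of nuclei with a Hdac9 UMI also differed. CPM sums alone do not separate fewer nuclei that express a gene from less RNA per nucleus. How far each made up the Hdac9 ratio was not tested. In Foxp3-positive nuclei Hdac9 stood at 66.6 CPM from 45 control UMIs and 116 CPM from 31 knockout UMIs. Hdac9 spans chr12:34047580-34917095 on the minus strand (mm10) and shares its strand with the annotated Gm47357, whose reads could not be told apart from its own where they overlap.

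A member was counted as higher between classes when its CPM was at least 25% above, and as lower when it was at least 20% below, in both libraries, with at least 100 UMIs over both classes in each library. This fold limit is a log2 ratio of 0.32 in either direction. Of the 40 members that passed this minimum, 4 were higher and 7 were lower in Cd3-negative nuclei. Over the 4938 genes of the whole table that passed it, 19.2% were higher and 22.8% were lower, and the members' shares were below these. This background was not matched to the members in level, and the difference in shares was not tested. The median log2 ratio of the members was -0.05 (control) and -0.09 (knockout), against -0.09 and -0.10 for all genes tested. With ratios centred on the median gene the count became 7 higher and 4 lower. The share over all genes was not counted with centred ratios, so the comparison with the background holds for uncentred ratios only. A log2 ratio had the same sign in both libraries for 32 of the 40 members. That share was not counted over all genes either, so it has no background.

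Deacetylases and their corepressor gave 3 of the 4 members that were higher. Beside Hdac9 stood its class IIa relative Hdac7, known from thymocytes, at 76.3 and 84.5 CPM in Cd3-negative and 45.0 and 47.0 CPM in other Cd3-positive nuclei. Its log2 ratio was 0.76 (0.47 to 1.06, control) and 0.84 (knockout, lower bound 0.45). Ncor1, the scaffold through which nuclear receptors and class IIa deacetylases reach Hdac3, was at 967 and 976 CPM against 573 and 603, with log2 ratios of 0.75 (0.67 to 0.83) and 0.69 (0.58 to 0.81). For both genes the Cd3-negative values of the 2 libraries were close to each other and above both other Cd3-positive values. The remaining class IIa member, Hdac4, did not share this pattern. It stood at 90.3 and 112 CPM in Cd3-negative nuclei and at 129 and 119 in other Cd3-positive nuclei, with log2 ratios of -0.52 (control) and -0.09 (knockout). The class I deacetylase Hdac1, a subunit of several corepressor complexes, was lower, at 76.6 and 72.9 CPM against 99.1 in both libraries. Its log2 ratios were -0.37 (-0.61 to -0.13) and -0.44 (-0.79 to -0.10), and with centred ratios, with no upper limit of UMIs or with Cd3 positivity from 2 UMIs it no longer passed in both libraries. Hdac1 has processed pseudogenes in the mouse genome, and how reads were divided among them is not given in the sources used here.

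Kdm6b was the only demethylase among the higher members. Its level was 977 and 967 CPM in Cd3-negative nuclei and 670 and 674 CPM in other Cd3-positive nuclei, and its log2 ratios were 0.54 (0.47 to 0.62) and 0.52 (0.41 to 0.63). Kdm2b, the member with the highest level per kilobase, went the other way. It stood at 760 and 918 CPM in Cd3-negative nuclei and at 1138 and 1438 CPM in other Cd3-positive nuclei, with log2 ratios of -0.58 (-0.66 to -0.51) and -0.65 (-0.74 to -0.56). Each class of the knockout library had more Kdm2b RNA than the same class of the control library, and the ratio between classes was alike in both. The other 3 testable demethylases, Kdm2a, Kdm5a and Kdm5c, had negative log2 ratios from -0.34 to -0.08 and did not pass in both libraries. Kdm6b overlaps Kdm6bos, and Kdm2b overlaps A930024E05Rik and Rnf34, on the opposite strand. Use of strand in the counting is not given in the sources used here, so reads in these overlaps could not be assigned with certainty.

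Chd7, a remodeller that binds enhancers, was lower in Cd3-negative than in other Cd3-positive nuclei by the widest margin of the testable members. It was at 513 and 552 CPM in Cd3-negative nuclei and at 822 and 936 CPM in other Cd3-positive nuclei, with log2 ratios of -0.68 (-0.77 to -0.59) and -0.76 (-0.88 to -0.65). Chd3, an ATPase of the NuRD deacetylase complex, stood at 130 and 150 CPM against 187 and 213. Its log2 ratios were -0.52 (-0.71 to -0.34) and -0.50 (-0.73 to -0.27). The other NuRD ATPase of the set, Chd4, had log2 ratios of 0.18 and 0.07, so the pair had opposite signs. Chd1, which works at transcribed genes, had -0.03 and -0.09, and Chd2 had -0.15 (-0.21 to -0.09) and -0.27 (-0.35 to -0.19).

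Both testable TET enzymes were lower in Cd3-negative nuclei. Tet2 stood at 134 and 148 CPM against 184 and 220, with log2 ratios of -0.46 (-0.64 to -0.28) and -0.57 (-0.80 to -0.34). Tet3 had log2 ratios of -0.33 (-0.60 to -0.06) and -0.52 (-0.89 to -0.16). Tet3 did not pass in both libraries once ratios were centred, while Tet2 did. The DNA methyltransferase Dnmt3a, which sets new methylation, had positive log2 ratios of 0.24 and 0.28 whose intervals reached below 0. Ezh1, the PRC2 methyltransferase of resting cells, was lower, with log2 ratios of -0.60 (-0.97 to -0.25) and -0.41 (-0.95 to 0.11). It no longer passed in both libraries with centred ratios (-0.51 and -0.31), with nuclei thinned to 1000 UMIs (-0.87 and -0.05) or with Cd3 positivity from 2 UMIs (-0.64 and -0.15). Ezh2, the alternative catalytic subunit that prevails in dividing cells, had -0.12 and -0.19. The PRC2 core subunits gave no common direction, with -0.06 and 0.45 for Eed and 0.16 and 0.21 for Suz12.

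The remaining roles held no member past the fold limit in both libraries. Among the H3K4 methyltransferase family, Kmt2c, which marks enhancers, came closest, with log2 ratios of 0.31 (0.17 to 0.45) and 0.32 (0.15 to 0.50). Kmt2e, a family member without known methyltransferase activity, had -0.33 and -0.29. Just inside the limit was Tet3, at 1.26-fold lower in the control library, and just outside it was Kmt2c, at 1.24-fold higher in that library. The acetyltransferase Crebbp, a broad coactivator, had log2 ratios of -0.01 (-0.11 to 0.10) and -0.07 (-0.21 to 0.08). Of the SWI/SNF subunits Arid1b had the highest ratios, 0.46 (0.35 to 0.57) and 0.28 (0.12 to 0.44), and Smarca2 (-0.04 and 0.02), Smarcc1 (-0.01 and 0.02) and Arid2 (0.09 and 0.14) lay near 0.

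**Figure D2:**
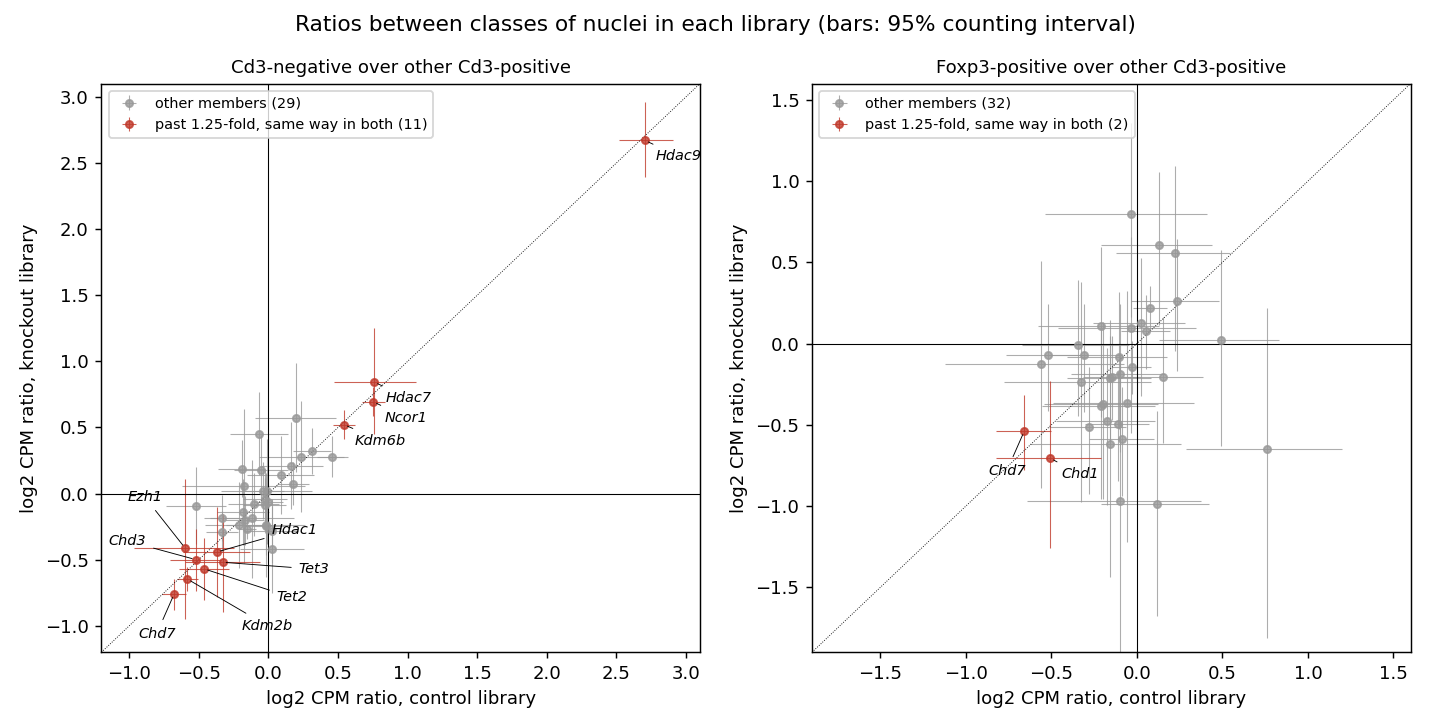
Log2 CPM ratio of Cd3-negative over other Cd3-positive nuclei, and of Foxp3-positive over other Cd3-positive nuclei, for testable members in each library, with 95% counting intervals. Hdac9 sits at 2.71 and 2.67 in the first contrast, and Chd7 is lowest there at -0.68 and -0.76. The dotted diagonal marks equal ratios in both libraries, and red points are members past the fold limit in both.

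Foxp3-positive nuclei were also set against the other Cd3-positive nuclei, the class that both contrasts share. Of 34 testable members none was higher and 2 were lower in both libraries, against 8.39% higher and 11.1% lower of 3514 genes. The median log2 ratio of the members was -0.10 (control) and -0.19 (knockout), against -0.03 and -0.05 for all genes tested. Chd7 was at 520 and 642 CPM in Foxp3-positive nuclei against 822 and 936, with log2 ratios of -0.66 (-0.82 to -0.50) and -0.54 (-0.78 to -0.32). Chd1 was at 148 and 135 CPM against 211 and 223, with -0.51 (-0.83 to -0.21) and -0.71 (-1.26 to -0.23). Both calls depended on the upper limit of UMIs. With deeper nuclei included, Chd7 had log2 ratios of -0.54 and -0.17 and Chd1 had -0.22 and -0.07. Kdm2b (-0.03 and -0.14) and Kdm6b (0.05 and 0.08) were close to the other Cd3-positive level. Hdac9 had -0.04 (control) and 0.80 (0.16 to 1.36, knockout), and Ezh2, with 20 and 4 UMIs in the Foxp3-positive class, was below the minimum.

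The 250 bases upstream of the annotated starts of the class IIa deacetylase genes are shown here because the largest difference between classes was in this family. The sequences are from RefSeq on GRCm38.p6 (the mm10 build), all read on the minus strand, and capitals mark CpG dinucleotides. Hdac9 outer start is chr12:34917096-34917345, which holds no CpG and overlaps no peak called in both libraries. Hdac9 inner start is chr12:34528890-34529139, inside the gene, with 2 CpGs. Hdac4 is chr1:92180342-92180591, with 23 CpGs, and the Hdac7 stretch, 1 of 4 RefSeq entries of that gene, is chr15:97831768-97832017, with 21.
Hdac9 outer start: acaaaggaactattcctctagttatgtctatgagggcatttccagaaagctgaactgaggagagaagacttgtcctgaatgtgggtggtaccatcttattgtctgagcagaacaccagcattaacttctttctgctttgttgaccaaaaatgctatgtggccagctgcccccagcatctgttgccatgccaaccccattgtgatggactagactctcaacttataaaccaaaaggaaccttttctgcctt
Hdac9 inner start: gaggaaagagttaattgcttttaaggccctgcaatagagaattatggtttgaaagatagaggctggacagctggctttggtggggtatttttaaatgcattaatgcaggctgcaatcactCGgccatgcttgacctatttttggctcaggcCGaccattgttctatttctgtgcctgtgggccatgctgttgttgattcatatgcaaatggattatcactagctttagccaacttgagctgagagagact
Hdac4: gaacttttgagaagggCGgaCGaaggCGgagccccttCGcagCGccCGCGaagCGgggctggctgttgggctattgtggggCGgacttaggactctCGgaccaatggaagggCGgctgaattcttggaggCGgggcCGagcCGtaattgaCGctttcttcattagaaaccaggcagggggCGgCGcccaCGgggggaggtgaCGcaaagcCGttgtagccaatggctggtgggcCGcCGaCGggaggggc
Hdac7: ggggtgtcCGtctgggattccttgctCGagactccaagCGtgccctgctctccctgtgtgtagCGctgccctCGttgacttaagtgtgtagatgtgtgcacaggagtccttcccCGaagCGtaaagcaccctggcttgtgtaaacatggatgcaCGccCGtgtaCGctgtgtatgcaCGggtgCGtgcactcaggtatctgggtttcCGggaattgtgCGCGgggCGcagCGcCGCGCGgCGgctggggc
All 250 bases of the Hdac4 stretch and 242 of the Hdac7 stretch lay in peaks called in both libraries. Of the other Hdac7 entries, not printed, the one with 25 CpGs lay wholly in a shared peak, while the outermost, with 6, and the innermost, with 5, overlapped none, as at the outer start of Hdac9. RefSeq entries were found for 33 of the 46 members, with 51 starts among them. The 36 stretches that overlapped a shared peak had a median of 25 CpGs and a range of 6 to 51, and the 15 outside had a median of 12 and a range of 0 to 44. The median over all 32851 mouse promoter entries was 6. A GC box, read as GGGCGG or CCGCCC, was in 64.7% of the members' entries and in 32.7% of all entries. TATAAA, searched on both strands, was in 1 member entry, the Hdac9 outer start, against 12.4% of all entries. These matches describe letters only.

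Of the 46 members, 43 had a peak called in both libraries within 1000 bases of an annotated transcript start. Hdac9, Kdm6b and Tet1 did not. These starts are those of GENCODE, and the RefSeq start of Tet1 differs from them: 216 of the 250 bases upstream of it lay in a shared peak. Promoter peak counts, taken per 1000000 counts in shared regions (peak CPM), gave no member past the fold limit in both libraries in either direction for Cd3-negative over other Cd3-positive nuclei. Over 13713 genes with enough counts, 10.3% were higher and 6.83% were lower. The same count was 0 of 43 for Foxp3-positive over other Cd3-positive nuclei, where 2.38% of 12156 genes were higher and 3.41% were lower. So no member whose RNA passed the limit had a promoter sum that passed it. Hdac9 and Kdm6b had no shared promoter region to count, and 1 of the Hdac7 regions, described below, passed by itself in the direction opposite to the RNA. Ncor1 promoter peaks were at 72.8 and 75.6 peak CPM in Cd3-negative nuclei and at 69.9 and 72.4 in other Cd3-positive nuclei. Chd7 had the sign opposite to its RNA, at 50.0 and 52.4 peak CPM against 40.4 and 42.2. Its log2 ratio was 0.31 in both libraries, with intervals of 0.02 to 0.55 (control) and -0.03 to 0.59 (knockout), so the knockout value lay within counting error. Kdm2b was at 141 and 139 peak CPM against 166 and 149, and Chd3 had log2 ratios of 0.11 and 0.55. Ezh1 differed between the libraries, with -0.58 (control) and -0.05 (knockout).

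**Figure D3:**
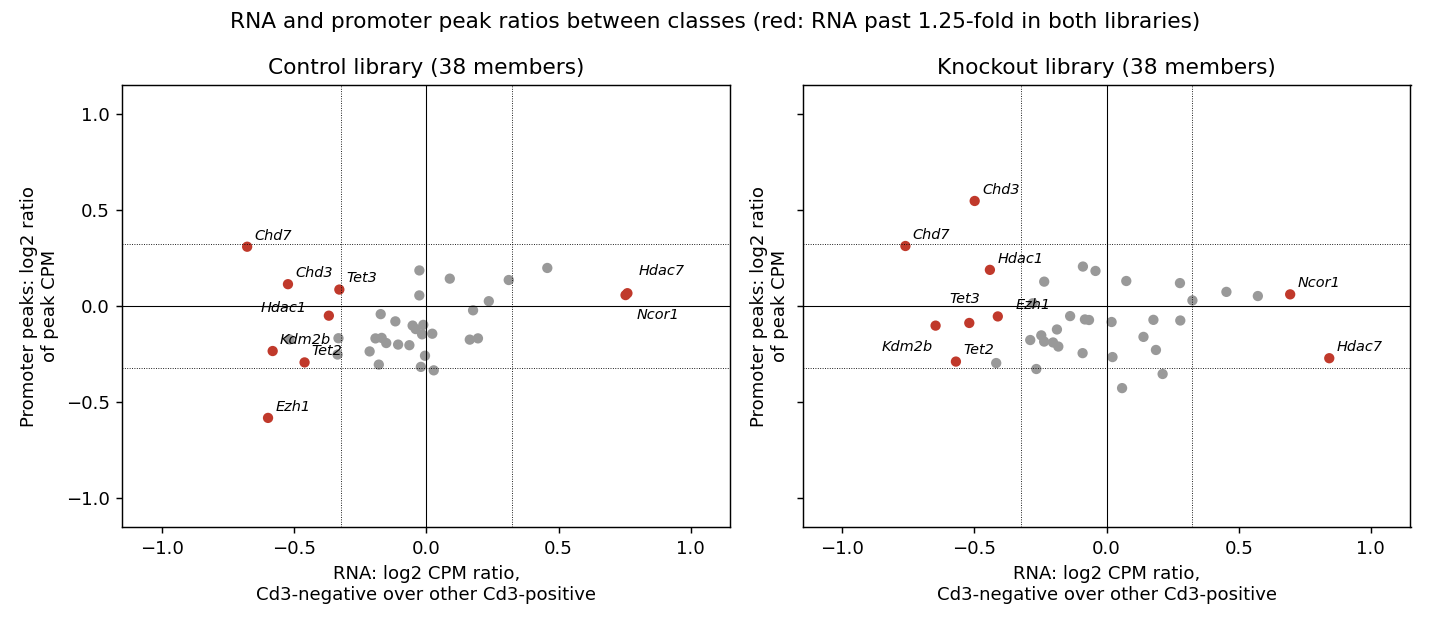
Log2 ratio of promoter peak CPM (vertical) against log2 ratio of RNA CPM (horizontal), Cd3-negative over other Cd3-positive nuclei, 1 point per member with both values, for each library. Red points are the members whose RNA passed the fold limit in both libraries, and they lie on both sides of the horizontal zero line, with Chd7 at 0.31 in both panels.

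Peaks within genes, away from starts, were summed in the same way. Hdac9 had 13 shared peaks in its gene body, which summed to 18.9 peak CPM in other Cd3-positive and 71.1 in Cd3-negative control nuclei, and to 26.1 and 73.6 in knockout nuclei. The log2 ratios were 1.91 (1.62 to 2.27) and 1.50 (1.19 to 1.90). The strongest of these peaks, chr12:34226497-34227408, had 2.25 peak CPM in other Cd3-positive and 23.3 in Cd3-negative control nuclei, and 6.02 and 23.2 in knockout nuclei. It lies 690143 bases into the gene from its outermost start. One Hdac9 peak, chr12:34801970-34802979, had the opposite direction, with log2 ratios of -1.33 and -1.95 whose intervals reached above 0. The inner start shown above lay in a peak called in the knockout library only, chr12:34528580-34529490. That peak had 4 counts in other Cd3-positive and 38 in Cd3-negative knockout nuclei, a log2 ratio of 2.90 (1.00 to 6.19).

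**Figure D4:**
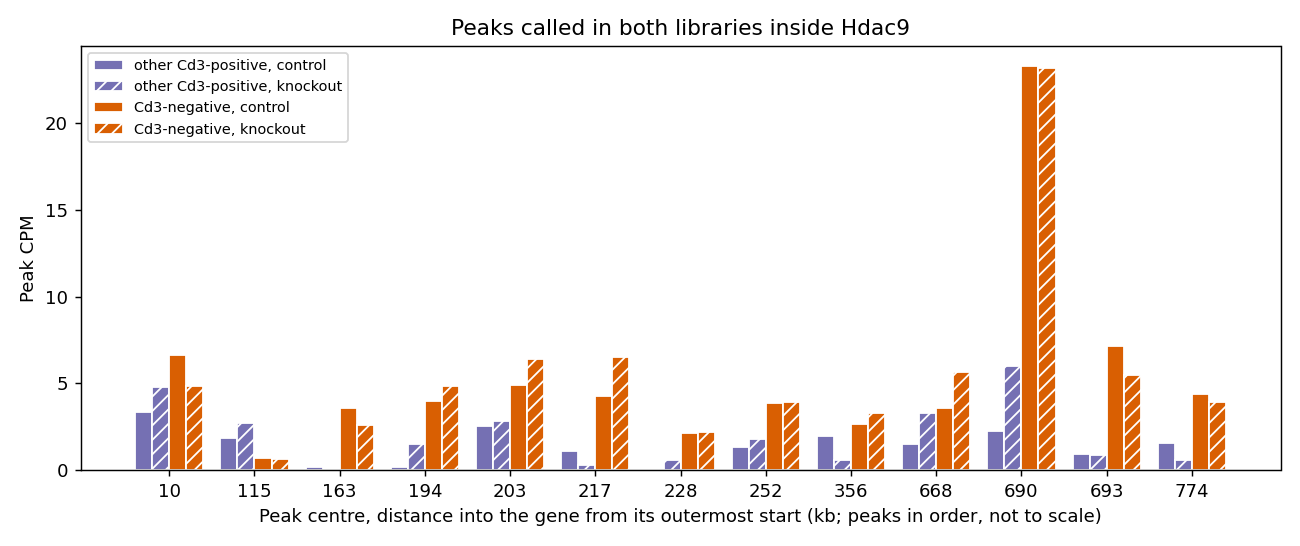
Accessible peaks along Hdac9, as peak CPM in Cd3-negative and other Cd3-positive nuclei of each library, against distance from the outermost annotated start. The tallest Cd3-negative values, 23.3 and 23.2, are at the same peak in both libraries.

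Gene-body peaks of Chd7, 19 in number, summed to 296 and 280 peak CPM in other Cd3-positive nuclei and 194 and 207 in Cd3-negative nuclei. The log2 ratios were -0.61 (-0.73 to -0.49) and -0.43 (-0.57 to -0.30), the direction of its RNA. Its promoter sum had the other sign, with a knockout interval that included 0. The 22 gene-body peaks of Hdac4 went from 230 and 206 to 146 and 147 peak CPM, with log2 ratios of -0.66 and -0.49. Kdm2b and Kdm6b did not show this. Their gene-body sums had log2 ratios of 0.06 and 0.01 and of -0.13 and -0.12. The 4 gene-body peaks of Ncor1 had -0.84 (-1.47 to -0.23) and -0.53 (-1.25 to 0.14) while its RNA was higher, so the knockout interval included 0. The 3 gene-body peaks of Ezh2 had log2 ratios of -1.12 and -1.37 and the 3 of Ezh1 had -1.14 and -0.81, while Ezh2 RNA was near 0. Kdm4a, an H3K9 and H3K36 demethylase, had the opposite direction, with 1.66 and 1.10 over 4 peaks. The Tet2 peaks had -0.39 and -0.53 and the Tet3 peaks -0.26 and -0.27, the sign of their RNA.

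Single peaks of a gene also differed. At Hdac4 an inner start peak, chr1:92148216-92149197, was at 1.12 and 0.524 peak CPM in Cd3-negative and at 6.38 and 5.12 in other Cd3-positive nuclei, while the main promoter peak, chr1:92180120-92181109, stood at 152 and 149 against 167 and 172. At Hdac7 the peak chr15:97816349-97817295 inside the gene was at 31.1 and 32.2 peak CPM in Cd3-negative nuclei and at 7.79 and 5.27 in other Cd3-positive nuclei. The Hdac7 peak near its outer start, chr15:97843039-97843936, had the opposite direction, with 3.47 and 2.62 against 7.70 and 9.94. At Kdm2b the peak chr5:122988798-122989648, centred 600 bases inside the outermost start, had log2 ratios of -0.56 and -0.32. The peak upstream of that start, chr5:122990201-122991086, had -0.39 and -0.14, and the peak over a start deep inside the gene, chr5:122899932-122900823, had 0.19 and 0.10. Both Kdm2b peaks near the outer end of the gene thus had the sign of its RNA, though their knockout intervals included 0 (-0.64 to 0.04 and -0.46 to 0.13). The inner peak had the other sign, with intervals that included 0 in both libraries (-0.07 to 0.41 and -0.21 to 0.39). Promoter sums take the peaks of all annotated starts, and gene-body sums take all peaks away from starts, so a sum can hide such pairs.

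Between the knockout and the control library, few members passed the fold limit. Here a gene was counted with at least 100 UMIs over both libraries, which 45 members reached, all but Tet1. In all kept nuclei 1 member was higher and 1 was lower, against 9.32% higher and 11.4% lower of 8327 genes. The members' log2 ratios ran from -0.68 to 0.33 with a median of 0.07, and the median gene was at -0.00. The ratio was above 0 for 33 members and below 0 for 12. Summed over the 46 genes the log2 ratio was 0.10 (0.08 to 0.12). The share of UMIs from ribosomal protein genes was 8.87% (control) and 6.85% (knockout), and of mitochondrial UMIs 0.326% and 0.178%. With both gene groups left out of the total, the median of the members was 0.04 and no member was higher past the limit.

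The SWI/SNF subunit Arid2, which belongs to the PBAF form of the complex, was the higher member. It had 641 control and 409 knockout UMIs, 86.3 and 109 CPM, and a log2 ratio of 0.33 (0.15 to 0.51). The ratio was similar in both larger classes, at 0.33 (0.06 to 0.59) in other Cd3-positive and 0.38 (0.11 to 0.64) in Cd3-negative nuclei. With no upper limit of UMIs it was 0.15. The class I deacetylase Hdac2, which pairs with Hdac1 in corepressor complexes, was the lower member, with 162 and 51 UMIs, 21.8 and 13.5 CPM, and a log2 ratio of -0.68 (-1.17 to -0.23). It was also lower in the other Cd3-positive class, by -0.76 (-1.48 to -0.12) on 90 and 25 UMIs. Its partner Hdac1 stood at 88.1 and 86.0 CPM, with a log2 ratio of -0.03 (-0.23 to 0.16).

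**Figure D5:**
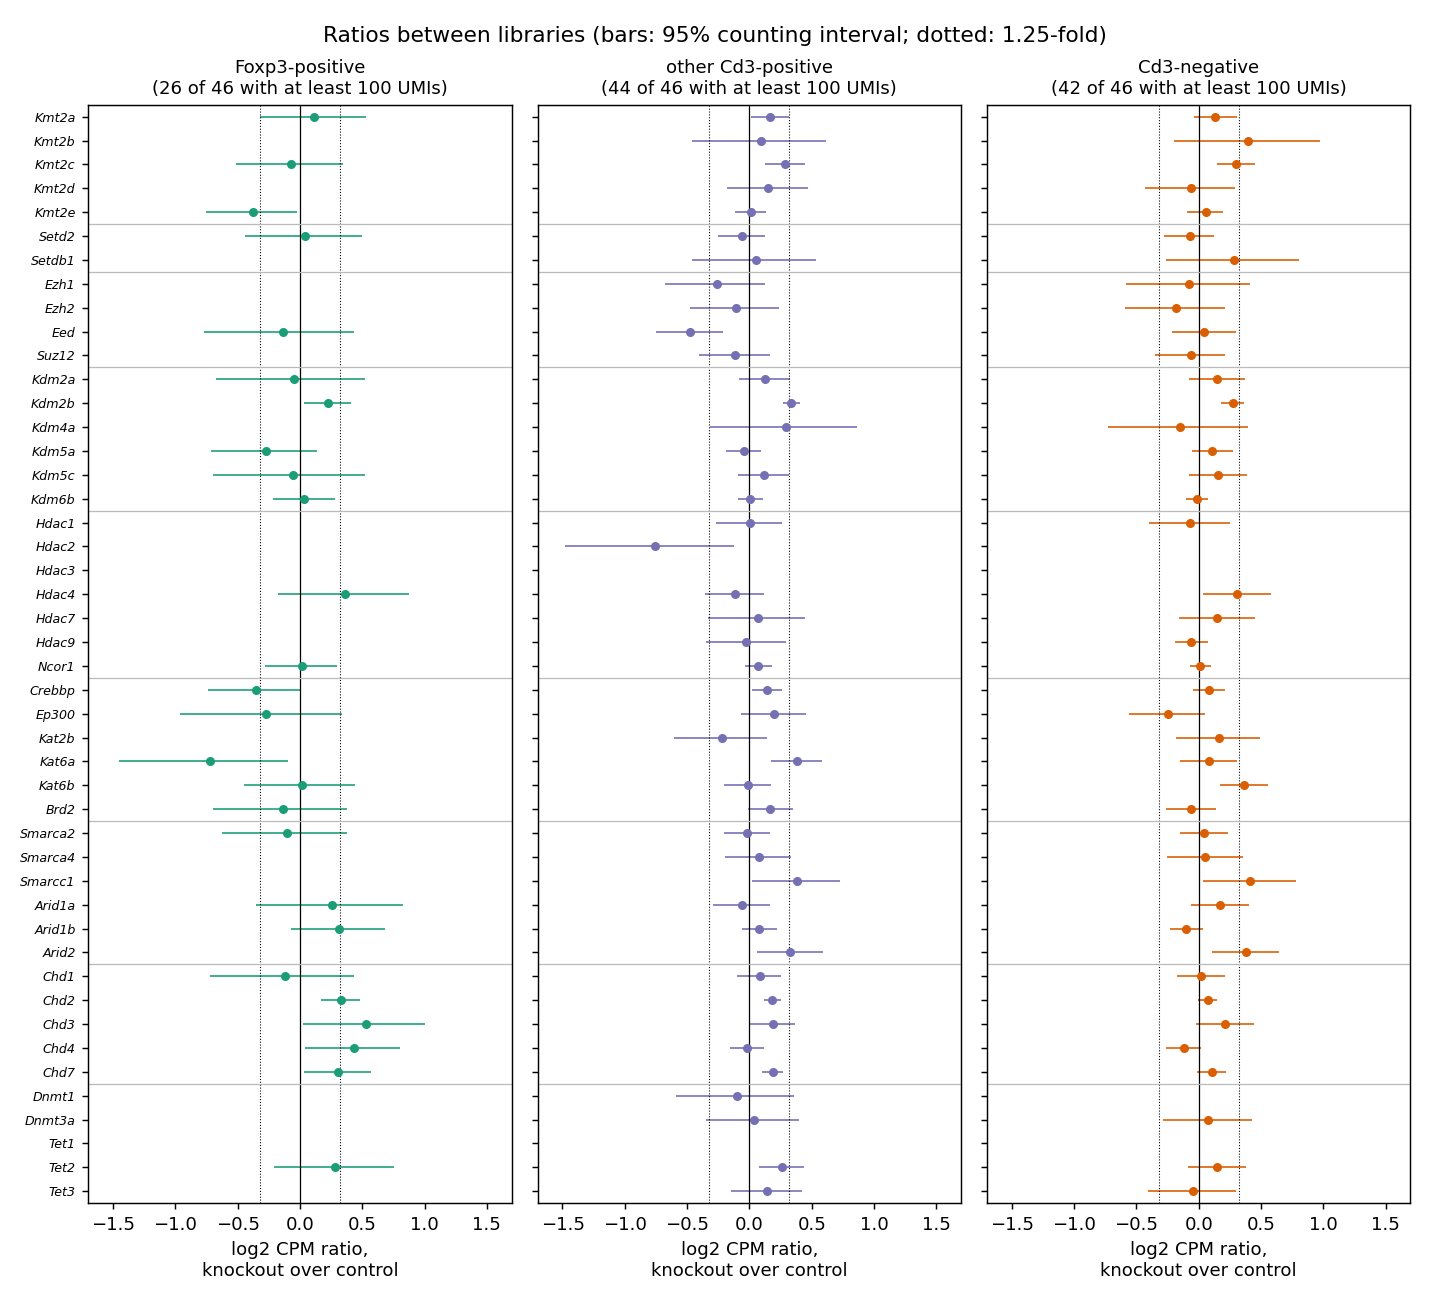
Log2 CPM ratio of the knockout over the control library for each testable member in each class, with 95% counting intervals and dotted lines at the fold limit. Most points lie between the lines, Hdac2 is lowest in other Cd3-positive nuclei at -0.76, and the Foxp3-positive values have the widest intervals.

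PRC2, the complex that writes the H3K27 methyl marks, was the 1 role whose 4 members were all below 0 in all kept nuclei. Their summed level was 309 and 276 CPM, a log2 ratio of -0.17 (-0.27 to -0.06). The ratio farthest from 0 was that of Eed, the subunit that reads the H3K27 trimethyl mark, at 118 and 102 CPM and -0.21 (-0.39 to -0.03). Ezh1, Ezh2 and Suz12 had -0.20, -0.16 and -0.10, each with an interval that included 0. With no upper limit of UMIs, Ezh1 (0.01) and Suz12 (0.02) lay just above 0, so the common sign did not hold there. By class the PRC2 sum was -0.26 (-0.42 to -0.11) in other Cd3-positive, -0.05 (-0.21 to 0.11) in Cd3-negative and -0.27 (-0.71 to 0.13) in Foxp3-positive nuclei. The difference between classes was not tested. Cell cycle genes, with which Ezh2 is known to vary, had a summed log2 ratio of -0.19 (-0.26 to -0.12) in all kept nuclei, and their part in the PRC2 values was not tested. Eed overlaps E230029C05Rik on the opposite strand.

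CHD remodellers and demethylases had the highest summed CPM of the roles, and both sums lay slightly above 0. The demethylase sum had a log2 ratio of 0.14 (0.11 to 0.18), of which Kdm2b was the main part, at 983 and 1192 CPM and 0.28 (0.22 to 0.33). Kdm6b, in contrast, was at 796 and 810 CPM, with 0.03 (-0.04 to 0.09). The CHD sum had 0.12 (0.08 to 0.15), with Chd2 at 1356 and 1494 CPM and Chd7 at 670 and 740 CPM, each with a ratio of 0.14. Chd2 shares its strand with 1810026B05Rik over part of its length. The H3K4 family sum had 0.12 (0.06 to 0.17), where Kmt2c, at 253 and 308 CPM, had 0.29 (0.18 to 0.39) and Kmt2e had -0.01 (-0.10 to 0.08). Acetyltransferases with the reader Brd2 had 0.09 (0.04 to 0.14), deacetylases with Ncor1 had 0.07 (0.02 to 0.12), and DNA methylation enzymes had 0.13 (0.03 to 0.23). The Setd2 and Setdb1 sum, for H3K36 and H3K9 methylation, had -0.03 (-0.16 to 0.09).

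The rest of the members gave ratios close to 0 in all kept nuclei. Tet2 was at 162 and 186 CPM, with 0.20 (0.06 to 0.33), while Tet3 had 0.09, Dnmt3a 0.02 and Dnmt1 -0.09, each with an interval that included 0. The SWI/SNF ATPases Smarca2 and Smarca4, which drive the complex, stood at 202 and 202 and at 89.2 and 93.2 CPM, and the large subunits Arid1a and Arid1b had 0.07 and 0.03. Smarcc1 was higher than these, at 50.2 and 60.2 CPM, with 0.26 (0.02 to 0.51). Of the acetyltransferases, the paralogues Crebbp and Ep300 had 0.09 (0.00 to 0.17) and -0.04 (-0.23 to 0.14), and Kat2b, of the SAGA and ATAC complexes, had 0.00. Kat6a and Kat6b had 0.18 (0.04 to 0.33) and 0.14 (0.01 to 0.27). Kmt2a, the H3K4 methyltransferase of the MLL1 complex, had 0.14 (0.03 to 0.25) at 251 and 277 CPM. The H3K4 demethylases Kdm5a, at 310 and 309 CPM, and Kdm5c, at 141 and 153 CPM, had -0.00 and 0.12. Over all testable members the interval lay above 0 for 13 and below 0 for 2. Of 73 testable genes on the wider list of chromatin genes described below, it lay above 0 for 11 and below 0 for 7. The share over all genes was not counted, so the members' numbers have no background here.

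The genes that define the classes differed between the libraries too, with log2 ratios in all kept nuclei of -0.42 for Cd3d, -0.13 for Cd3e, -0.31 for Cd3g and -0.34 for Foxp3. Their part in the values by class was not tested. Within the other Cd3-positive class, 44 members were testable, 4 were higher and 2 were lower, against 10.9% and 12.2% of 6190 genes. Kdm2b was the best measured of them, with 4272 control and 2569 knockout UMIs, 1138 and 1438 CPM and a log2 ratio of 0.34 (0.27 to 0.41). Kat6a, a MYST-family acetyltransferase, was at 140 and 182 CPM, with 0.38 (0.18 to 0.58). Smarcc1, a SWI/SNF core subunit, was at 47.4 and 61.6 CPM, with 0.38 (0.02 to 0.73), and Arid2 was the fourth. Of these, Kat6a and Smarcc1 rested on fewer UMIs than Kdm2b, and the Smarcc1 interval nearly reached 0. Eed was lower, at 119 and 85.1 CPM, with -0.47 (-0.75 to -0.21), beside Hdac2. With mitochondrial and ribosomal protein genes left out of the total, 2 members were higher and 2 were lower.

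Within the Cd3-negative class, 42 members were testable, 4 were higher and none was lower, against 10.1% and 13.1% of 5729 genes. Kat6b, the paralogue of Kat6a, was at 170 and 219 CPM, with a log2 ratio of 0.37 (0.17 to 0.56). Smarcc1 had 0.41 (0.03 to 0.78) and Arid2 0.38, as above. Kmt2b, at 20.0 and 26.2 CPM, had 0.40 with an interval from -0.20 to 0.97, so its difference was not larger than counting error. Hdac9 was at 451 and 433 CPM, with -0.06 (-0.19 to 0.07), so its ratio between the libraries in this class lay within counting error. Kdm6b (-0.01) and Ncor1 (0.01) were likewise close.

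The Foxp3-positive class was the smallest, with 675336 control and 266317 knockout UMIs in all, and 26 members were testable in it. Of these 4 were higher and 3 were lower, against 14.1% and 18.5% of 1873 genes. CHD remodellers gave 3 of the 4 higher members. Chd2 was at 1482 and 1859 CPM, with a log2 ratio of 0.33 (0.17 to 0.48). Chd3 had 0.53 (0.02 to 1.01) on 99 and 56 UMIs, and Chd4 had 0.43 (0.04 to 0.81) on 168 and 89 UMIs. The CHD sum was 2545 CPM (control) and 3180 (knockout), a ratio of 0.32 (0.20 to 0.44). Hdac4 had 0.36 with an interval from -0.17 to 0.87. With no upper limit of UMIs, Chd2, Chd3, Chd4 and Hdac4 had 0.15, 0.20, 0.05 and 0.05 and none of them passed, while 6 other members did (Ezh1, Kdm2b, Hdac9, Kat2b, Chd7 and Tet3).

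Acetyltransferases held 2 of the 3 lower members of the Foxp3-positive class. Kat6a had 102 control and 24 knockout UMIs, 151 and 90.1 CPM, and a log2 ratio of -0.72 (-1.45 to -0.09). Crebbp was at 395 and 308 CPM, with -0.35 (-0.74 to 0.00), and Kmt2e at 406 and 312 CPM, with -0.37 (-0.75 to -0.02). With no upper limit of UMIs all 3 turned to the other side of 0, at 0.07 for Kat6a, 0.14 for Crebbp and 0.11 for Kmt2e. These 3 directions therefore rested on which nuclei were kept.

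Promoter peaks of the members differed little between the libraries. In all kept nuclei none of the 43 members was past the fold limit, against 5.5% higher and 3.1% lower of 15442 genes, and the log2 ratios ran from -0.23 to 0.20. The lowest was that of Kmt2e, at 201 and 172 peak CPM, with -0.23 (-0.31 to -0.12). It came from the peak over its start, chr5:23433861-23434870, which was lower in the knockout library in each class, at 85.1 and 57.2 peak CPM in other Cd3-positive, 79.5 and 49.8 in Cd3-negative and 68.1 and 48.2 in Foxp3-positive nuclei. That peak was called over 1005 control and 876 knockout bases, and its RNA did not differ in all kept nuclei beyond counting error. Promoter levels ran from 17.3 and 15.9 peak CPM at Setdb1, an H3K9 methyltransferase, to 227 and 209 at Brd2, a reader of acetylated histones.

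By class, none of 43 promoters passed in Cd3-negative nuclei, against 5.01% higher and 4.57% lower of 14204 genes. In other Cd3-positive nuclei Hdac7 was higher, at 33.5 and 44.6 peak CPM with a log2 ratio of 0.41 (0.10 to 0.73), and Chd3 was lower, at 20.7 and 15.7 with -0.40 (-0.93 to 0.04). The background there was 5.37% higher and 5.01% lower of 13791 genes. Hdac7 and Chd3 RNA in that class had log2 ratios of 0.07 (-0.33 to 0.45) and 0.19 (0.00 to 0.37), so for Chd3 RNA and promoter lay on opposite sides of 0. In Foxp3-positive nuclei 3 of 39 promoters were higher and 5 were lower, against 14.6% and 15.2% of 8905 genes. The higher ones were Eed (0.40), Kdm5c (0.35) and Hdac4, and the lower ones Kdm5a (-0.60), Brd2 (-0.44), Dnmt3a (-0.43), Ep300 (-0.35) and Chd1 (-0.33). Of these 8 intervals, those of Hdac4 and Brd2 did not include 0. Hdac4 was the 1 member there whose RNA and promoter both passed, with a promoter log2 ratio of 0.42 (0.07 to 0.78) at 166 and 221 peak CPM. The interval of its RNA ratio included 0, and the RNA no longer passed with no upper limit of UMIs (0.05) or with a limit of 3000 UMIs (0.17).

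A wider list of 86 other chromatin genes was counted in the same way. Between the libraries 73 were testable in all kept nuclei, 1 was higher and 1 was lower, and their median log2 ratio was -0.00. Dot1l, the H3K79 methyltransferase, was at 289 and 373 CPM, with 0.37 (0.27 to 0.47), and Ring1, of the Polycomb complex PRC1, had -0.82 (-1.56 to -0.18) on 85 and 24 UMIs. Between Cd3-negative and other Cd3-positive nuclei, 60 of these genes were testable, 8 were higher and 13 were lower in both libraries. Hells, a remodeller needed for DNA methylation, was highest, with log2 ratios of 1.40 and 1.04 at 67.6 and 58.9 CPM in Cd3-negative nuclei. Kdm7a, a demethylase, had -0.84 and -0.78, and Asxl2, a Polycomb-associated factor, had -0.82 and -1.11. These were the lowest of the list in the control and the knockout library. Every testable gene of this wider list lay below the ratios of Hdac9, 2.71 and 2.67.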

How the data were processed

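The deposited values are raw counts, of UMIs for genes and of peak reads for peaks, which the authors made with Cell Ranger ARC 2.0.1 on mm10, per the submitters' processing notes. Of the peak values, 91.7% (control) and 90.7% (knockout) were even, so peak counts look like transposase insertion ends. Their intervals rest on fragments, each peak count in a nucleus being halved, with odd counts raised by 1 first. Peaks were called separately in each library (83851 and 85738), and 73219 regions formed by overlapping peaks held peaks of both. Use of strand or introns in counting is not given in the sources used here.

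Nuclei were kept with 500 to 4000 UMIs, 300 or more genes and no more than 10% of UMIs from mitochondrial genes. The low-quality filters removed 47 control and 45 knockout barcodes. UMIs were summed per library and class, and log2 CPM ratios used a pseudocount of 0.5 UMI with exact conditional 95% intervals. With 1 library per genotype no test across samples exists. A difference was counted from 25% above or 20% below (a log2 ratio of 0.32) with at least 100 counts. Promoters were 1000 bases either side of any GENCODE transcript start. Any member may be named, and of other lists up to 2 genes at either end. Overlapping genes were named beside some of the members they touch, after their values were seen. Other members also overlap genes on the opposite strand. Among them are Ncor1 (Pigl and Ttc19), Hdac7 (Slc48a1), Tet2 (Gm42567), Tet3 (B230319C09Rik), Smarcc1 (Dhx30) and Kmt2e (Srpk2). Reads in these overlaps could not be assigned with certainty either. The members and lists were chosen with earlier results of these data known. The scripts were tested on simulated data. Python 3.11.15, numpy 2.4.6, scipy 1.17.1, pandas 2.3.3 and matplotlib 3.10.9 were used. Each library targeted 5000 nuclei, with 7 cDNA and 15 library cycles. Alternatives tried were 10 planned and 2 added for RNA, and 6 planned and 1 added for promoter peaks.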

Additional observations from a re-analysis of the deposited data

Results flagged for a closer look

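Kat6a was past the fold limit in opposite directions in 2 classes of nuclei under the same contrast of knockout over control. Its log2 ratio was -0.72 (-1.45 to -0.09) in Foxp3-positive nuclei, on 102 control and 24 knockout UMIs, and 0.38 (0.18 to 0.58) in other Cd3-positive nuclei, on 525 and 325 UMIs. The difference between the classes was not tested, since each genotype has 1 library. With no upper limit of UMIs per nucleus the Foxp3-positive value was 0.07.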

How the results depend on the processing

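No paired analysis was possible because each genotype has 1 library. The 4 members that were higher and Kdm2b, Chd3, Chd7 and Tet2 among those lower in Cd3-negative nuclei kept their direction past the fold limit in both libraries under every alternative, except that Hdac7 had too few counts at a minimum of 300 UMIs. Ezh1, Hdac1 and Tet3 each did not pass under some of them. Hdac9 ranged from 1.97 to 3.87 in the control and from 1.97 to 3.62 in the knockout library. Without Kit, Il1r1, Ncr1 or Arg1 UMIs in the other Cd3-positive nuclei, an alternative chosen after seeing the data, it was 3.87 and 3.62. Counts between the libraries were less stable, and the cause was not tested. With no upper limit of UMIs, 6 members were higher in Foxp3-positive nuclei, none of them among the 4 reported, 1 was lower there, 1 higher and 1 lower in other Cd3-positive, 1 higher in Cd3-negative, and 0 promoters passed in other Cd3-positive in either direction. There, Foxp3-positive Kmt2e (0.11), Crebbp (0.14) and Kat6a (0.065) reversed, and Kdm2b replaced Arid2 as the member higher in all kept nuclei (Arid2 0.15). With a limit of 3000 UMIs, 3 were higher in all kept nuclei, and 1 was lower in each of the 3 classes. Thinned to 1000 UMIs per nucleus, 4 were higher in all kept nuclei, none of them Arid2, 2 were higher in Foxp3-positive and 1 was lower in Cd3-negative nuclei. With CPM without mitochondrial and ribosomal protein genes, 0 were higher in all kept and 2 in other Cd3-positive nuclei. Centred ratios gave 7 higher and 4 lower in Cd3-negative over other Cd3-positive nuclei. A minimum of 20 UMIs gave 7 higher and 8 lower in Foxp3-positive, 1 lower in Cd3-negative, and 5 lower in Foxp3-positive over other Cd3-positive nuclei. A minimum of 300 UMIs gave 0 lower in all kept, 1 higher in Foxp3-positive, 1 lower in other Cd3-positive and 2 higher in Cd3-negative nuclei. With Cd3 positivity from 2 UMIs, Eed was the 1 member higher in Foxp3-positive over other Cd3-positive nuclei. With Cd3-negative nuclei also free of other T-cell marker UMIs, added after seeing the data, Ezh1 was at -0.28 in the control library, 0 were higher and 2 lower in all kept nuclei and 1 was lower in Cd3-negative. A promoter window of 500 bases gave 1 lower in all kept, and 3 higher and 2 lower in other Cd3-positive nuclei. In the latter, 2000 bases gave 0 higher, and the outermost start alone, added after seeing the data, gave 2 higher. The Foxp3-positive class has the least depth, 266317 knockout UMIs, so only its best covered members were testable.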
